A study of Homo sapiens with 10 samples.

Results

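The genes described here are ELAVL1, ELAVL2, ELAVL3, ELAVL4, NOVA1, NOVA2, MSI1, MSI2, PTBP1 and PTBP2, which encode RNA-binding proteins of neurons or close relatives of such proteins. Of 178837 peaks of polyadenylated 3′ ends, the 266 with a summit in the GENCODE 44 body of one of these 10 genes, or up to 600 bp past its 3′ end, were taken. The peaks came from IMR-32, a human neuroblastoma cell line, in which CDK12 or CDK13, kinases of the RNA polymerase II C-terminal domain, had been knocked down. All cells carried a lentiviral pLKO.1 shRNA and had been selected with puromycin for 2 days: 4 libraries were made with shCDK12 (sh22 or sh98, 2 libraries each), 4 with shCDK13 (sh701 or sh704, 2 each) and 2 with shGFP, the control. The study asked whether loss of either kinase moves transcript ends into the gene body, which matters for long genes such as several of these 10.

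Only 1 peak list, called on the reads of all 10 libraries together, was analysed. The list gives neither the strand of a peak nor a value for any single library. No difference between shCDK12, shCDK13 and shGFP could therefore be measured, the knockdown of the kinases could not be checked, and the depth per library is unknown. The libraries had been processed in different batches and reduced to the smallest size before they were pooled, and batch and knockdown cannot be told apart here. Nothing in the labels says whether the 2 libraries of an shRNA came from separate cultures. All 12 marker genes of adrenergic neuroblastoma had a peak in the 3′ UTR of the main transcript or up to 600 bp past it. Their highest pileups were 17 to 114. Over all protein-coding genes with a 3′ UTR, 13682 of 19550 had such a peak. Of 16 markers of fibroblasts, endothelium, leukocytes, epithelium and glia, 6 had one. These were COL1A1 (highest pileup 14), CD68 (13), EPCAM (13), GFAP (12), LUM (9) and CDH5 (8). The other 10, among them DCN, PECAM1, PTPRC and CDH1, had none.

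As background, cleavage and polyadenylation end a transcript a short way after a hexamer, most often AATAAA or ATTAAA in DNA letters, and many neuronal transcripts carry several such sites in 1 long 3′ untranslated region (UTR), called tandem sites. ELAVL proteins (the Hu antigens) bind U-rich elements in 3′ UTRs and introns and can keep proximal sites from being used. ELAVL1 is found in nearly every cell, and ELAVL2, ELAVL3 and ELAVL4 mainly in neurons. NOVA proteins bind YCAY clusters and steer splicing and 3′ end choice, Musashi proteins (MSI1, MSI2) bind UAG motifs in 3′ UTRs, and the polypyrimidine tract-binding proteins PTBP1 and PTBP2 repress exons, PTBP1 in progenitors and PTBP2 in maturing neurons.

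The measurement was the pileup, the number of reads stacked at a peak's summit after each read is extended to 100 bases, given here with its exact 95% Poisson interval. Because 1 read was kept per position and strand, the pileup counts distinct read positions. It cannot pass 200, or 100 for reads of 1 strand, and is neither an expression level nor a share of transcripts. The Poisson interval treats these positions as a plain count. It does not cover reads dropped as duplicates, so values near the limit can understate the reads. Reads of this protocol start at the 3′ end of the RNA. The end of a peak that lies farthest downstream in the gene, called the 3′ edge, marks the most downstream of these ends. Where the summit lies more than 100 bases before the edge, the reads at the summit ended upstream of the edge. Pileup and edge sequence then describe different sites. In the main 3′ UTRs, such edges lie 3194 (ELAVL3), 543 (ELAVL4), 3483 (NOVA2) and 1798 (MSI1) bases after the stop codon. Others lie at 2286 (MSI2), 862 and 1495 (PTBP1) and 1638 (PTBP2). The core signal is AATAAA or ATTAAA, on the strand of the gene, starting 10 to 40 bases before the 3′ edge. An edge was called A-rich where at least 7 of the next 10 genomic bases are A, a sequence on which an oligo(dT) primer can anneal inside an RNA. All intervals cover counting error only.

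The 266 peaks fell into 34 in the main 3′ UTR (that of the Ensembl canonical transcript plus 600 bp), 20 at another annotated transcript end of the same gene, 11 in other exons and 201 in introns. MSI2, the longest of the genes at 429 kb, held 110 of them, ELAVL4 36, ELAVL2 and PTBP2 29 each, NOVA1 23, ELAVL1 14, ELAVL3 11, MSI1 7, PTBP1 4 and NOVA2 3. Each of the 10 genes had 2 or more main 3′ UTR peaks, where 53.1% of 13682 protein-coding genes with at least 1 did. The 10 canonical 3′ UTRs were 1486 to 6129 bases long, all above the median of 1381.5 bases over those genes, and the part of this length in the count was not tested.

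**Figure D1:**
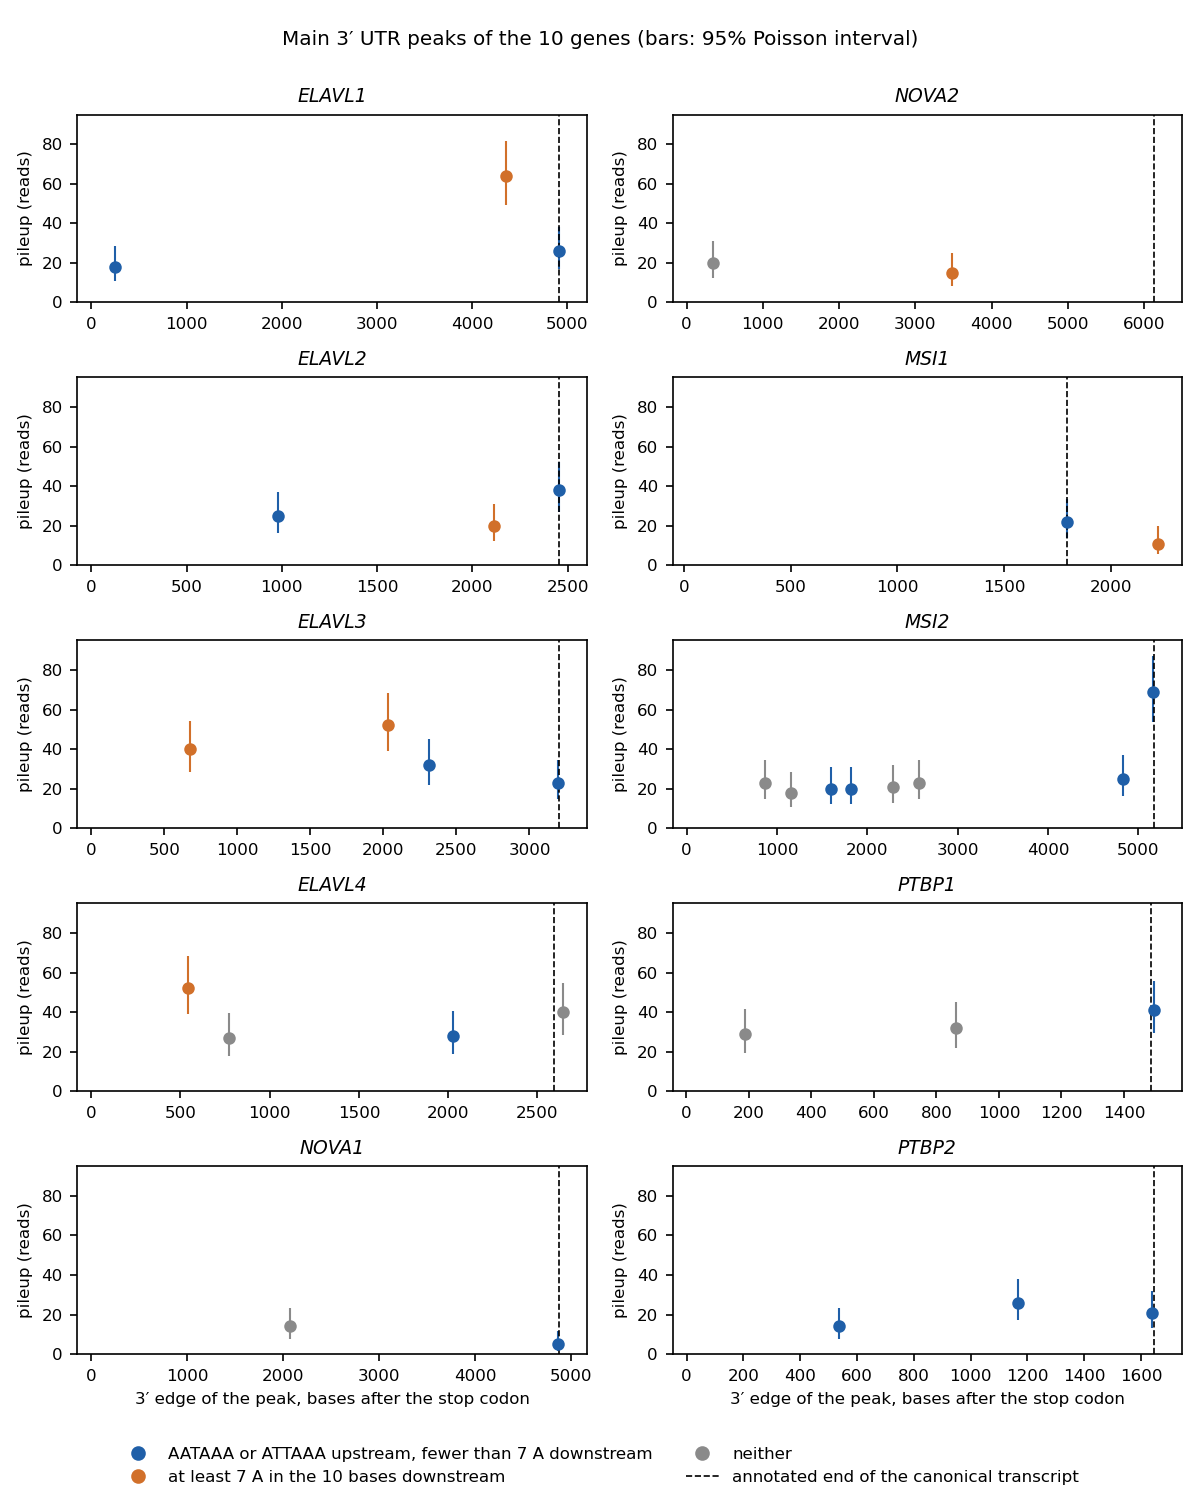
Main 3′ UTR peaks of the 10 genes by the distance of the 3′ edge from the stop codon in spliced bases (x axis) and the pileup in reads (y axis). Points are single peaks, bars are 95% Poisson intervals, colours give the sequence at the edge, and the dashed line marks the annotated end. MSI2 had 8 peaks with the highest (69) 8 bases before its end. The highest peaks of ELAVL1 (64), ELAVL3 (52) and ELAVL4 (52) had A-rich edges and lay before the last peak. In ELAVL4 the summit of that peak lay more than 100 bases before its edge. No share over all genes is given for A-rich highest peaks.

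A peak within 10 bases of the canonical end was present in 8 of the 10 genes, against 60.1% of protein-coding genes with a main 3′ UTR peak. The exceptions were ELAVL4 and NOVA2. In 4 genes (ELAVL2, MSI1, MSI2 and PTBP1) that end peak was the highest of the 3′ UTR, and in ELAVL1 it was the highest of the peaks that were not A-rich. In MSI1 and PTBP1, however, its summit lay more than 100 bases before the edge. The reads counted there ended upstream of the annotated end. No share over all genes is given for these counts. The core signal preceded 18 of the 34 edges (52.9%, 95% Wilson interval 36.7% to 68.5%), close to the 54.2% of all 26147 main 3′ UTR peaks. Of these 18 signals, 14 were AATAAA and 4 ATTAAA, and they started 11 to 29 bases before the edge with a median of 21, against a median of 24 over all genes. Within 100 bases upstream, AATAAA or ATTAAA was present at 22 of the 34, the 4 added edges being in ELAVL1, ELAVL4, MSI2 and PTBP1. No share over all genes is given for this wider window. In the window of the core signal, any of the study's 12 hexamers, AATAAA and ATTAAA included, preceded 25 of the 34 edges. This was 73.5% (56.9% to 85.4%), with 70.6% over all genes. A-rich edges made up 7 of 34 (20.6%, 10.3% to 36.8%), with 12.1% over all genes inside that interval. In ELAVL4, 1 A-rich edge also had the core signal.

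The sequences below are the genomic bases at the 3′ edges, read from the hg38 reference on the strand of the gene, 5′ to 3′, and are shown because they separate edges that follow a hexamer from edges that stand before genomic A. The number after a gene is the position of the edge in bases after the stop codon. Where the core signal was found, the run ends at the edge and the hexamer is in capitals. Where the edge was A-rich without it, the run holds 20 bases before and 10 after the edge, with the A after the edge in capitals. Runs in lower case end at the edge and have neither.

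ELAVL1 (ENSG00000066044.15, chr19:7958573-8005659, minus strand) encodes HuR, a stabiliser of AU-rich transcripts. Its 3′ UTR of 4910 bases had 3 peaks, 1 near its start, 1 at 4360 and 1 on the annotated last base. All 3 are shown:
ELAVL1 254, chr19:7963229-7963258: agatatatATTAAAcagaaatctaagtaga
ELAVL1 4360, chr19:7959113-7959142: gctttttaaattattttcagAAAAAAAAAA
ELAVL1 4910, chr19:7958573-7958602: ttggtAATAAAtgaagtgggatcattgcga
The first had a pileup of 18 (10.7 to 28.4) and ATTAAA 21 bases before the edge, and the last had 26 (17.0 to 38.1) and AATAAA 24 bases before it with 0 A in the 10 bases after. The middle peak was the highest, 64 (49.3 to 81.7), and its interval lay above those of both others. Of 10 bases after its edge 10 were A, none of 12 hexamers, AATAAA and ATTAAA included, started 10 to 40 bases before it, and the nearest annotated end of ELAVL1 lies 550 bases away. AATAAA or ATTAAA did lie within 100 bases upstream of the edge, the distance the study's methods use. An RNA gene of the opposite strand, ENSG00000269813, also overlaps its summit, and the list does not say from which strand the reads came. Of the 13682 protein-coding genes with a main 3′ UTR peak, 1.40% had as high a pileup. A further peak with an edge 59 bases after the stop codon (pileup 26, 17.0 to 38.1) was counted with the end of the transcript ELAVL1-202, 206 bases away. It had no core signal, but another of the 12 hexamers started in the same window.

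ELAVL2 (ENSG00000107105.15, chr9:23690104-23826337, minus strand), which encodes the neuronal protein HuB, had tandem sites with the same hexamer. Its 3′ UTR of 2453 bases carried a peak with AATAAA at 980 and a peak with AATAAA on the last annotated base, with an A-rich one between them:
ELAVL2 980, chr9:23691577-23691606: atttgtgattttgaaacaAATAAAaaaaat
ELAVL2 2114, chr9:23690433-23690462: tttaaaaaaagaaaaacactAAAAAAtAAA
ELAVL2 2453, chr9:23690104-23690133: agtacatcAATAAAcaaagttgaagggaaa
The pileup was 25 (16.2 to 36.9) at the proximal site, 20 (12.2 to 30.9) at the A-rich edge and 38 (26.9 to 52.2) at the end. The end was the highest, but the 3 intervals overlapped. The proximal signal started 11 bases before its edge and the distal one 21 bases before. The proximal edge was followed by 6 A of 10, 1 short of the limit for A-rich. Before the A-rich edge, another of the 12 hexamers started in the window of the core signal.

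ELAVL3 (ENSG00000196361.10, chr19:11451326-11481046, minus strand) encodes HuC, which is expressed as neurons leave the cell cycle. In contrast to ELAVL2, its pileups were highest in the middle of the 3′ UTR of 3200 bases and lowest in the last peak, the order of the edges from the stop codon being:
ELAVL3 679, chr19:11453837-11453866: aaaaaaacacaaaaaaagacAAAAAAAAAA
ELAVL3 2031, chr19:11452485-11452514: cacagaagagatttaaaaaaAAAAAAggAA
ELAVL3 2313, chr19:11452213-11452242: gtggaatcATTAAAgtaataataattatta
ELAVL3 3194, chr19:11451332-11451361: cttttcatgccagaaAATAAAagttcagaa
The A-rich peaks at 679 and 2031 had 40 (28.6 to 54.5) and 52 (38.8 to 68.2) reads. The peak at 2313, with ATTAAA 21 bases before the edge, had 32 (21.9 to 45.2), and the end peak, with AATAAA 14 bases before an edge 6 bases short of the annotated end, had 23 (14.6 to 34.5). The interval of the end peak lay below that of the highest peak but overlapped that of the other peak with the core signal. Of the 2 peaks with the core signal, the proximal one thus had the higher value without the intervals separating them. The A-rich edge at 2031 had another of the 12 hexamers in the same window. The summit of the end peak lay more than 100 bases before its edge, so its 23 reads ended upstream of that edge.

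ELAVL4 (ENSG00000162374.18, chr1:50024029-50203772, plus strand) encodes HuD, a marker of neuronal differentiation and a classic neuroblastoma antigen. Its 3′ UTR of 2594 bases held 4 peaks, none of them within 10 bases of the canonical end:
ELAVL4 543, chr1:50201692-50201721: cacacaaATTAAAgaggaataataaaaatt
ELAVL4 774, chr1:50201923-50201952: aatataaagaatttttacaagagaatctgg
ELAVL4 2027, chr1:50203176-50203205: tcttaatggtAATAAAacgttatggttatt
ELAVL4 2644, chr1:50203793-50203822: aatgtgtttatttaaactttttttctgtac
The first peak, at 543, had the highest pileup, 52 (38.8 to 68.2), with ATTAAA 22 bases before the edge and also 7 A of 10 after it. Its summit lay more than 100 bases before that edge, so the 52 reads ended upstream of the edge. The next had 27 (17.8 to 39.3) and no core signal, but another of the 12 hexamers started in the same window. The third had 28 (18.6 to 40.5) with AATAAA 19 bases before its edge, 567 bases short of the annotated end. The last had 40 (28.6 to 54.5). It spanned the annotated end, with its edge 50 bases past it and no core signal before that edge, though AATAAA or ATTAAA lay within 100 bases upstream. Each interval overlapped that of the highest peak, in the case of the peak of 27 only slightly. Overlap is not a test, and differences between the 4 sites were not tested.

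ELAVL4 also had peaks at annotated ends inside the gene. The peak at the end of ELAVL4-219, a protein-coding transcript that stops upstream of the canonical 3′ UTR, had 24 reads and AATAAA 17 bases before an edge 3 bases from that end. The peak at ELAVL4-216 had 12 reads, AATAAA 22 bases before the edge and 2 bases to the end. Both edges had fewer than 7 A downstream. ELAVL2 and ELAVL3 had no peak of this class.

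NOVA1 (ENSG00000139910.20, chr14:26443090-26598033, minus strand) encodes a neuron-specific splicing factor. Its highest main 3′ UTR pileup was the lowest such value of the 10 genes. The pileups were 14 (7.65 to 23.5) at 2074 bases and 5 (1.62 to 11.7) at 4864, 5 bases short of the end of its 3′ UTR of 4869 bases. The proximal edge lay 3 bases from the end of the shorter transcript NOVA1-204. It had no core signal, but another of the 12 hexamers started in the window used for the core signal. The distal edge followed AATAAA by 24 bases. The intervals overlapped, and 80.7% of the 13682 protein-coding genes with a main 3′ UTR peak had as high a pileup. The proximal edge reads:
NOVA1 2074, chr14:26445885-26445914: tataaatgtgcttagttcatcatgtagcat
An early annotated end, that of NOVA1-201 in intron 4 of the canonical transcript, had a pileup of 15 with AATAAA 19 bases before an edge 1 base from the end. This value was close to the 14 of the proximal 3′ UTR peak, and the difference was not tested. A weaker peak of 4 reads with AATAAA stood 47 bases from the end of NOVA1-213.

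NOVA2 (ENSG00000104967.8, chr19:45933734-45974044, minus strand), its paralogue, prominent in the cortex, has the longest 3′ UTR of the set, 6129 bases. Its peaks were at 351 and 3483 bases, and none was found in the last 2646 bases:
NOVA2 351, chr19:45939512-45939541: atagaaaacaaagcgttattttctctttct
NOVA2 3483, chr19:45936370-45936399: ttttcttagaatctttgtaagAAAAAAAAA
The first had 20 reads (12.2 to 30.9) and the second 15 (8.40 to 24.7), with overlapping intervals. Neither had the core signal, though another of the 12 hexamers started in its window before the first edge. The second was followed by 9 A of 10. NOVA2 was the only one of the 10 genes without a core signal at any main 3′ UTR peak, and at a peak list of this depth a weak end peak may not have been called.

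MSI1 (ENSG00000135097.7, chr12:120341330-120369164, minus strand) encodes Musashi-1, a translational repressor of neural progenitors. A peak of 22 reads (13.8 to 33.3) ended 1 base past the annotated end, and a second of 11 (5.49 to 19.7) lay 427 bases past it:
MSI1 1798, chr12:120341329-120341358: aaattcctAATAAAttatttgaaaacgttg
MSI1 2224, chr12:120340893-120340922: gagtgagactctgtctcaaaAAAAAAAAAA
The end peak had AATAAA 21 bases before the edge and 0 A in the 10 bases after. Its summit lay more than 100 bases before the edge, so its 22 reads ended upstream of that edge. The downstream peak had no core signal and 10 A of 10. Without the 600 bp added past the end, MSI1 would have 1 main 3′ UTR peak.

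MSI2 (ENSG00000153944.12, chr17:57255851-57684689, plus strand), whose product Musashi-2 is also known from blood stem cells and leukaemia, had the largest series of tandem peaks. The 8 peaks of its 3′ UTR of 5172 bases were matched or exceeded in number by 27 protein-coding genes, itself included, or 0.197% of the 13682 with a main 3′ UTR peak. None of the 8 edges had 7 or more A in the next 10 bases. The edge at 2286 did have a stretch of 25 bases with at most 3 other than A, starting within 50 bases downstream. The study's methods look for such a stretch in a window of 50 bp, so the limit used here is wider. The edges shown are 7 of the 8:
MSI2 868, chr17:57680356-57680385: caattccattaactacatagaaactattaa
MSI2 1160, chr17:57680648-57680677: ttatttaaaatatgaaaaactgcttttccc
MSI2 1601, chr17:57681089-57681118: agaattttaaaAATAAAaagtataaacatc
MSI2 1818, chr17:57681306-57681335: tggcATTAAAacatattgtagtgtggatat
MSI2 2286, chr17:57681774-57681803: tcaaaacttgttcaagtcataaaacaacaa
MSI2 2574, chr17:57682062-57682091: ctagtacatattgataggtataacataatt
MSI2 4833, chr17:57684321-57684350: aatgtatctaAATAAAactttccctagcac
The peak 8 bases before the annotated end had 69 reads (53.7 to 87.3), the highest main 3′ UTR pileup of the 10 genes, which 0.702% of the protein-coding genes with a main 3′ UTR peak reached. The other 7 had 18 to 25 reads, and all 7 intervals lay below that of the end peak. The intervals of these 7 overlapped one another, and differences among them were not tested. The core signal was present at 4 of the 8 edges, among them the edge at 4833 (AATAAA, 19 bases), that at 1601 (AATAAA, 18 bases) and that at 1818 (ATTAAA, 25 bases). The edges at 868 and 1160 had none but lay 88 and 61 bases from the ends of the transcripts MSI2-204 and MSI2-227. Those at 2286 and 2574 had none and were 1065 and 1353 bases from the nearest annotated end. AATAAA or ATTAAA did lie within 100 bases upstream of the edge at 2286. Another of the 12 hexamers started in the window of the core signal at 868 and 2286, but not at 1160 and 2574.

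PTBP1 (ENSG00000011304.22, chr19:797075-812327, plus strand), the repressor of neuronal exons in non-neuronal cells and progenitors, had 3 peaks in a 3′ UTR of 1486 bases:
PTBP1 186, chr19:810983-811012: tcaccttgctcaccctgcggtgacagggac
PTBP1 862, chr19:811659-811688: ccagagagcaggcggggccgcccagtgggt
PTBP1 1495, chr19:812292-812321: gAATAAAtcttctgtatcctcgctccgttc
The end peak, 9 bases past the annotated end with AATAAA 28 bases before the edge, had 41 reads (29.4 to 55.6). The edges at 186 and 862 had 29 (19.4 to 41.6) and 32 (21.9 to 45.2), none of 12 hexamers starting 10 to 40 bases before the edge, and 2 and 3 A downstream. AATAAA or ATTAAA lay within 100 bases upstream of the edge at 186 but not of that at 862. The edge at 186 lay 4 bases from the end of the annotated transcript PTBP1-207. The 3 intervals overlapped. For the end peak and the peak at 862, the summit lay more than 100 bases before the edge. Their reads ended upstream of these edges.

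PTBP2 (ENSG00000117569.20, chr1:96721665-96823738, plus strand), the neuronal paralogue, was the only gene in which every main 3′ UTR peak had the core signal and fewer than 7 A downstream:
PTBP2 537, chr1:96813913-96813942: attgaaagAATAAAgcagcatttttagttt
PTBP2 1165, chr1:96814541-96814570: AATAAAaacatggctcagaatctacaggtc
PTBP2 1638, chr1:96815014-96815043: tttataccataAATAAAtctagatgctgtg
The pileups were 14 (7.65 to 23.5) at 537, 26 (17.0 to 38.1) at 1165 and 21 (13.0 to 32.1) at 1638, 6 bases short of the end. The intervals overlapped, and differences between the sites were not tested. The summit of the peak at 1638 lay more than 100 bases before its edge, so its 21 reads ended upstream of that edge. A longer annotated transcript, PTBP2-211, ends farther downstream, and a peak of 9 reads lay 5 bases from its end with ATTAAA 14 bases before the edge. PTBP2 thus had a hexamer at all 4 of the annotated or tandem ends named here.

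Across the 34 main 3′ UTR peaks, 10 edges lay within 10 bases of an annotated transcript end of their gene and 20 more than 100 bases from any. No share over all main 3′ UTR peaks is given for these counts, so they are not shown to be particular to the 10 genes. The 17 edges with the core signal and fewer than 7 A had a median pileup of 25 (5 to 69), the 7 A-rich ones 40 (11 to 64), and the median of all 34 was 24 against 19 over all genes. In the 100 bases before the edge, TTTTT, a run of the U that ELAVL proteins bind, was present at 17 of 34 (50%, 34.1% to 65.9%), with 36.6% over all main 3′ UTR peaks. TGTA, the core of the UGUA element bound by the cleavage factor CFIm, was present at 21 (61.8%, 45.0% to 76.1%), with 51.2% over all. Both motifs were searched on the strand of the gene, and both background shares lay inside the members' intervals.

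**Figure D2:**
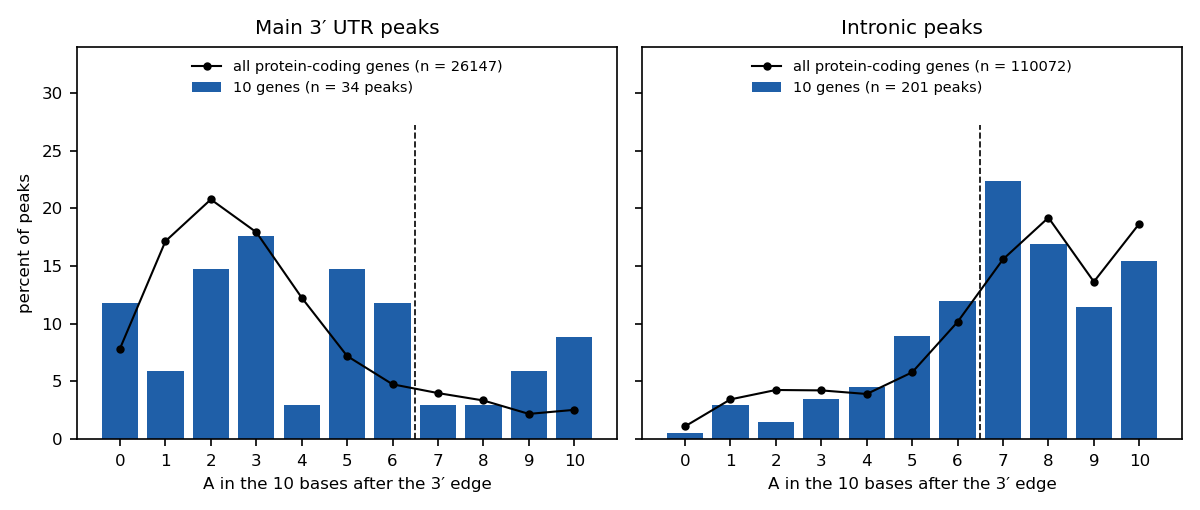
Number of A among the 10 genomic bases after the 3′ edge (x axis) as a percentage of peaks (y axis), for main 3′ UTR peaks (left) and intronic peaks (right). Bars show the 10 genes, lines all protein-coding genes, and the dashed line the limit for A-rich (at least 7). A-rich edges were 20.6% of the main 3′ UTR peaks and 66.2% of the intronic peaks of the 10 genes, against 12.1% and 67.1% over all genes.

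In introns, most edges stood before genomic A. Of 201 intronic peaks, 133 were A-rich (66.2%, 59.4% to 72.4%), with 67.1% of the 110072 intronic peaks of all protein-coding genes. The core signal with fewer than 7 A was found at 19, where 7.95% of all intronic peaks had it. A further 49 edges had neither feature nor an A-rich side on the opposite strand, and no share over all genes is given for these. The median intronic pileup was 11 (4 to 47) against 8 over all genes, and it was 12 (6 to 47) for the 19 with the core signal and 11 (4 to 43) for the A-rich ones. None of the 201 lay inside a gene of the other strand.

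**Figure D3:**
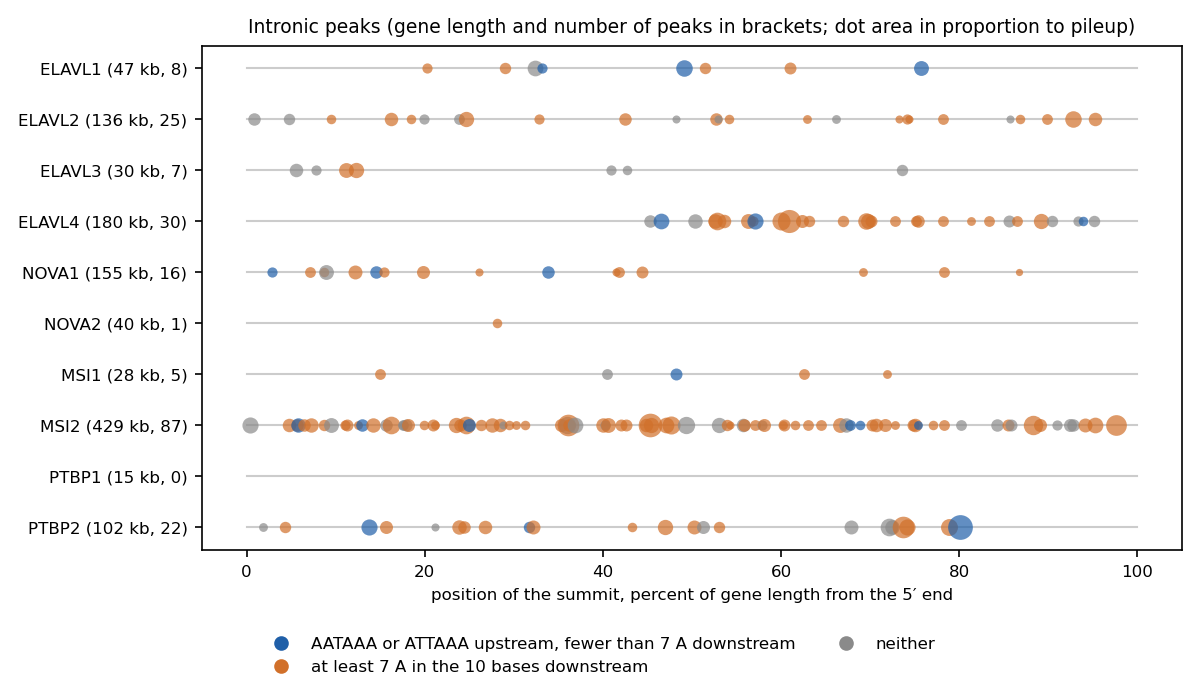
Intronic peaks along the 10 genes, with the summit's position in percent of gene length from the 5′ end (x axis) and 1 gene per row with its length and number of peaks in brackets. Dot area is in proportion to pileup and colours give the sequence at the edge. A-rich edges (133 of 201) were present in 9 genes, PTBP1 had no intronic peak, and the largest dot is the PTBP2 peak of 47 reads.

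Relative to intron length, intronic peaks were denser in 7 of the 10 genes than the median of 12.4 per 100 kb over 10003 protein-coding genes with a main 3′ UTR peak and at least 10 kb of intron (10th to 90th percentile 1.57 to 21.96). ELAVL3 had 28.0 per 100 kb (exact Poisson interval 11.3 to 57.8) and PTBP2 26.8 (16.8 to 40.6), values that 2.78% and 3.43% of those genes reached. MSI2 had 21.4 (17.1 to 26.4), MSI1 20.2 (6.56 to 47.1), ELAVL1 19.9 (8.61 to 39.3), ELAVL2 19.1 (12.3 to 28.2) and ELAVL4 17.5 (11.8 to 24.99). NOVA1, with 11.1 (6.32 to 18.0), and NOVA2, with 3.21 (0.0813 to 17.9), lay below the median. Among the 10 genes, MSI2 and PTBP2 were the only ones whose interval lay wholly above 12.4. These densities use the whole gene outside the exons of any annotated transcript. In ELAVL4 the first intronic peak lay 81.5 kb from the gene start. Its canonical introns 1 to 4 had 33.6, 28.2, 36.2 and 60.9 per 100 kb, and introns 5 and 6 had 0. An interval over its canonical introns alone was not computed, so its rank depends on the gene model. PTBP1 had no peak in 7.73 kb of intron, which allows up to 47.7 per 100 kb, so its density could not be placed.

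**Figure D4:**
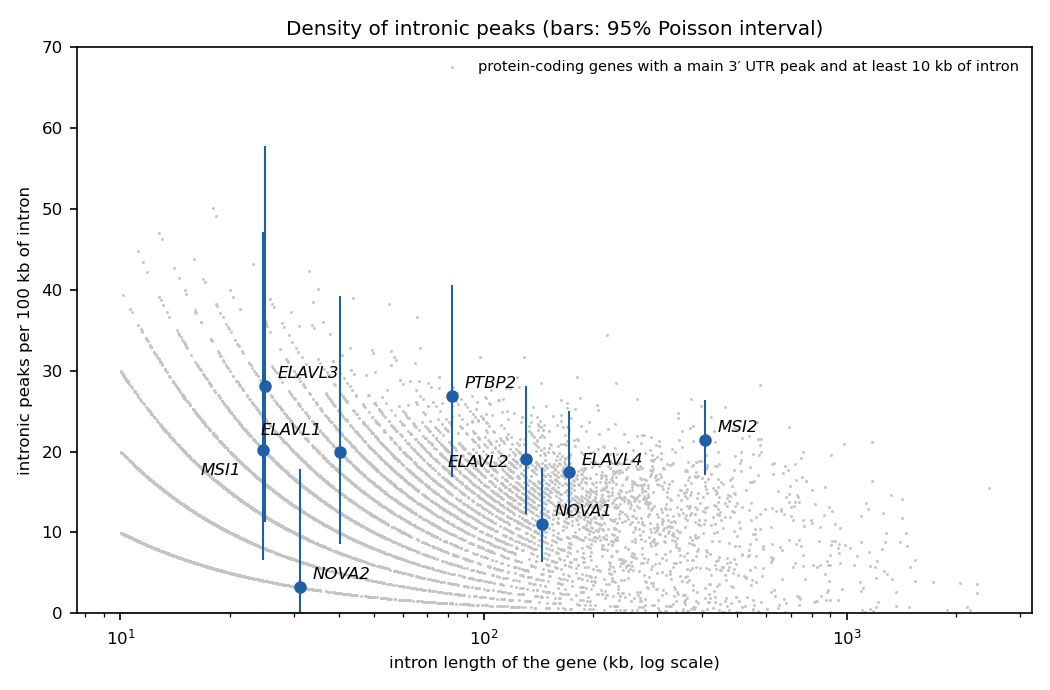
Intronic peaks per 100 kb of intron (y axis) against the gene's intron length in kb on a log scale (x axis). Blue points are 9 of the 10 genes with 95% Poisson intervals, grey points the protein-coding genes with a main 3′ UTR peak and at least 10 kb of intron, and PTBP1 is left out with under 10 kb of intron. ELAVL3 (28.0) and PTBP2 (26.8) were the highest of the 9, and NOVA2 (3.21) the lowest.

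Most intronic peaks lay in long introns. In MSI2, introns 5, 6 and 7 held 74 of 87 intronic peaks (85.1%) on 79.3% of the intron length. NOVA1 intron 2, of 115 kb, held 14 of 16 peaks (87.5%) on 77.9% of the length. ELAVL3 intron 1 held 6 of 7 (85.7%) on 55.1%, and 6 of the 7 also lie within ENSG00000267477, a gene of the same strand, so that their reads could come from either. ELAVL1 intron 2 held 4 of 8 on 25.5%. In ELAVL4, the first 3 introns held 12, 9 and 6 peaks, and in ELAVL2 10, 6 and 6. These counts are small in all genes but MSI2, and no excess in single introns was tested.

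The highest intronic peak of the set was in PTBP2, in intron 8 (chr1:96803288-96803528), with 47 reads (34.5 to 62.5). Its interval overlapped only that of the highest main 3′ UTR peak of the gene, 26 (17.0 to 38.1), and lay above the other 2. It had ATTAAA 40 bases before the edge, at the limit of the window, and 5 A downstream. The summit lay more than 100 bases before that edge, so the 47 reads ended upstream of it. Hexamer and A count thus do not describe the site of these reads. Within 1 kb downstream of it, still in intron 8 of the canonical transcript but in exons of another transcript, lay peaks of 16 and 33 reads, the latter A-rich. An intronic peak above every main 3′ UTR peak was also found in NOVA1 (17 against 14), making 2 of the 9 genes with intronic peaks, where 19.2% of 10304 protein-coding genes with both kinds had one. The other intronic pileups of 30 or more were all A-rich: 43, 36 and 33 in MSI2, of which that of 36 also had ATTAAA 11 bases before the edge, 41 in ELAVL4 intron 1 and 36 in PTBP2 intron 8. The peak of 43 in MSI2 also lies in ENSG00000279281, a gene model of the same strand.

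The 10 intronic peaks with the highest pileup among the 19 with the core signal and fewer than 7 A are shown. They combine a hexamer with fewer than 7 A downstream, away from any annotated end, and whether they are cleavage sites was not tested. In the order shown, 5, 1, 6, 6, 4, 5, 5, 3, 6 and 4 of the 10 bases after the edge were A. In the runs that start with the hexamer, it lies 32 to 40 bases before the edge. The main 3′ UTR signals of the 10 genes lay 11 to 29 bases before theirs. A run that starts with the hexamer stops before the edge, and the others end at the edge:
PTBP2 intron 8, chr1:96803488-96803517: ATTAAAtgagaaacatatgccactgacaga
ELAVL1 intron 2, chr19:7982507-7982536: AATAAAattcattttaaaaagaaagtggca
ELAVL4 intron 1, chr1:50126676-50126705: caatttacctgATTAAAattaagattgaag
PTBP2 intron 2, chr1:96735687-96735716: AATAAAaataacttagaatttagcacagag
ELAVL4 intron of a longer transcript, chr1:50107718-50107747: ttgattaaattatgagttaAATAAAtagtg
ELAVL1 intron 4, chr19:7969963-7969992: ttaaaaaaaaaattaaaAATAAAaaacact
MSI2 intron 5, chr17:57280777-57280806: cctaataaggcaaatcATTAAAaataaaat
MSI2 intron 5, chr17:57362963-57362992: aaaaATTAAAcatagatttattgtgtggtc
MSI2 intron 5, chr17:57311358-57311387: tctcattttgcaaaggATTAAAgataaaag
NOVA1 intron 2, chr14:26545624-26545653: AATAAAacatatgtgaaagagtgcttagca
Below PTBP2 intron 8, the pileups ranged from 21 (13.0 to 32.1) in ELAVL1 intron 2 to 12 in MSI2 intron 5 and NOVA1 intron 2. ELAVL1, ELAVL4, NOVA1 and PTBP2 had 3 such peaks each, MSI2 6 and MSI1 1. ELAVL2 had none among 25 intronic peaks, of which 17 were A-rich, ELAVL3 had none among 7, and the only intronic peak of NOVA2 was A-rich. A hexamer in this window is a description of the sequence, and 7.95% of all intronic peaks had it with fewer than 7 A.

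Other annotated transcript ends accounted for 20 peaks, with a median pileup of 17 (4 to 28). Of these, 10 edges lay within 10 bases of the annotated end of the transcript, a count for which no share over all genes is given. The core signal was present at 8 of the 20 (40%, 21.9% to 61.3%), with 28.8% of 10870 such peaks over all genes. A-rich edges were also 8 of the 20, with 41.1% over all genes. MSI2 held 11, of which 3 had the core signal before an edge within 3 bases of an annotated end: MSI2-214 (18 reads), MSI2-217 (14 reads), both with AATAAA, and MSI2-206 (12 reads), with ATTAAA. Of the 11 peaks in other exons, 7 were A-rich (63.6%, 35.4% to 84.8%), with 38.3% of 9437 over all genes inside that interval. The first exon of ELAVL2 carried a peak of 23 reads (14.6 to 34.5), 0.158 kb from the gene start, with no core signal and 0 A downstream. The summit of this peak lay more than 100 bases before its edge.

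Of 36 other genes of RNA-binding proteins with known roles in neuronal splicing, stability or 3′ end choice, 35 had a main 3′ UTR peak. Of these, 31 had 2 or more, with a median of 3 peaks and highest pileups of 10 to 65. Over all protein-coding genes with a 3′ UTR, 13682 of 19550 had a main 3′ UTR peak. Of those, 53.1% had 2 or more, and the median was 2. RBFOX2, a splicing factor that binds UGCAUG, had the most, 6 peaks with a highest pileup of 47. CELF2 (highest pileup 42), TIA1 (29) and MBNL3 (14) followed with 5 each. KHDRBS2 had none. MSI2, with 8, had more tandem peaks than any of the 36. Its 3′ UTR of 5172 bases is longer than the 90th percentile of 4691 over protein-coding genes with such a peak. The part of this length in the count was not tested. All MSI2 3′ UTR peaks but that at the end had −log10 q of at most 8.65.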

How the data were processed

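Poly(A) 3′-seq libraries (QuantSeq 3′ mRNA REV) of IMR-32 cells (10 libraries) were reduced by the authors to a single peak list: reads were trimmed, mapped to GRCh38 with STAR 2.5.1b, downsampled, merged, and peaks called with MACS2 2.1.1 at a read extension of 100 bp. The paper also describes a filter that removed peaks with none of 12 hexamers upstream but a genomic stretch of A downstream. Whether the list used here precedes or follows that filter is not known. The deposited fold is the ratio of pileup to local background at the summit, and the deposited p-value and q-value are given as −log10. The pileup was recovered from the deposited fold and p-value (MACS2 adds 1 to both terms of the ratio). The largest deviation of the recomputed from the deposited p-value over all peaks was 0.000168 on the −log10 scale. Summits were placed on GENCODE 44 gene models in the order main 3′ UTR, other annotated end (200 bp before to 600 bp after), exon and intron. Motifs were read from hg38 around the 3′ edge, in the direction of transcription. Hexamers were searched among 12 variants in an alternative.

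The 10 genes and all lists were chosen with earlier results of these data known. Named were the 10 genes with their main 3′ UTR peaks. Sequences were shown for the highest main 3′ UTR peak of each gene, its other main 3′ UTR peaks with a pileup of at least 10, and up to 10 intronic peaks with the core signal and fewer than 7 A, except for 1 sequence that is not reported here. Of the other RNA-binding protein genes the 3 with the most peaks were to be named, and a tie made these 4. No comparison between groups was possible, so shares have Wilson and counts exact Poisson intervals at 95%. On simulated data 4870 of 4870 pileups and 1000 of 1000 planted hexamers were recovered. The simulation used the formula that the recovery inverts and did not reach the highest pileups of the list, so it checks the code only. Python 3.11.15, numpy 2.4.6, scipy 1.17.1, pysam 0.24.0, samtools 1.23.1 and matplotlib 3.10.9 were used. Alternatives changed the q-value limit, the position of a peak, merging, the 3′ extension, the transcript set and the motif windows.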

Additional observations from a re-analysis of the deposited data

How the results depend on the processing

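Of 49 alternatives, 38 stayed within 1.5 times of the reported count or inside the reported interval. With peaks of −log10 q of at least 20, 28 of the 266 peaks were left, 10 of the 34 in main 3′ UTRs and 12 of the 201 in introns, 3 genes had 2 or more main 3′ UTR peaks, the A-rich share of intronic peaks was 75% and the density over the 10 genes was 1.13 per 100 kb of intron, against 18.9 (16.4 to 21.7) in the full list. At −log10 q of at least 5 the density was 15.6. The share of main 3′ UTR peaks with a hexamer was 73.5% with any of 12 hexamers and 23.5% when searched within 100 bases of the summit in place of the edge, against 52.9%. The A-rich share of intronic peaks was 78.1% at 6 or more A, against 66.2%. It was 3.48% when a stretch of 25 bases with at most 3 other than A, starting within 50 bases downstream, was required. Stricter or looser limits keep fewer or more peaks by construction, and for the window at the summit the cause was not tested. No paired analysis was possible because all 10 libraries were merged before peaks were called, and for the same reason no replicate could be left out in turn. Pileups below about 10 reads have wide intervals, and sites with fewer reads may not have been called.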
